A study of Mus musculus with 15 samples.

Results

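The liver makes haem, an iron-containing ring, for its cytochromes P450, catalase and respiratory chain. The genes described here are enzymes of that pathway, taken by symbol from both deposited tables: Alas1, Alad, Uros, Urod, Cpox, Ppox and Fech, 7 genes of 23509. All 7 were in both tables and all 7 passed the filter on low values in every comparison. Bulk RNA-seq gave 15 libraries of liver from male mice on the C57BL/6 background. Under ethanol there were 4 Aldh2-/- and 5 wild-type (WT) libraries, and on the pair-fed control diet 3 of each genotype. Aldh2 encodes the mitochondrial enzyme that clears acetaldehyde formed from ethanol. The Aldh2-/- line is a knockout for which the labels name no Cre driver. The age given for the mice is 8 to 10 weeks, and it is not taken here as their age at collection. By the labels all groups also had carbon tetrachloride (CCl4, a liver toxin that causes fibrosis) in olive oil, given into the peritoneum 2 times a week over 8 weeks, and livers were taken 24 h after the last dose. The titles of pair-fed samples do not mention CCl4, while their treatment field does. On that field, pair-fed mice are controls for ethanol and not for the toxin. Libraries are named by group and the number in their title.

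As background, haem synthesis starts and ends in the mitochondrion. ALAS1 joins glycine and succinyl-CoA into aminolaevulinate and is the rate-limiting enzyme in liver, where haem feeds back to lower it. In the cytosol ALAD acts on aminolaevulinate, UROS closes the ring and UROD trims its side chains. The oxidases CPOX and PPOX act next, at or in the mitochondrion, and ferrochelatase, the product of Fech, inserts iron. ALAS2 is the form of the first enzyme in red cell precursors. Loss of individual enzymes of the pathway causes the porphyrias.

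Upstream sequence is shown for the genes with the largest differences between ethanol-fed genotypes (Alad and Cpox, and for Alas1 a short stretch), and for Urod, whose level varied least. The sequences are from RefSeq, GRCm38.p6, read 5′ to 3′ on the strand of the gene. Matches to any of 8 short motifs on either strand are in capitals. The motifs were an NRF1 core (letters GCGCANGCG), an E-box with the letters CACGTG, the TGACG core of a cyclic AMP response element (CRE core), the CCAAT box, a GC box with the letters GGGCGG, the AGGTCA element of nuclear receptors, the FOXO motif GTAAACA and the GATA motif GATAAG, chosen after the sequences were seen.
Alas1: gcacccaagGCGCATGCGCggcggtca
Alad: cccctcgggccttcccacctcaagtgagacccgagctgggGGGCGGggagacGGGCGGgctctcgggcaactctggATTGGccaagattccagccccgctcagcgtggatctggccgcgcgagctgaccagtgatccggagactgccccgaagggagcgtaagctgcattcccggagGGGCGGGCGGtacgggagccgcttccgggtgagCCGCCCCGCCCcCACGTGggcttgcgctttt
Cpox: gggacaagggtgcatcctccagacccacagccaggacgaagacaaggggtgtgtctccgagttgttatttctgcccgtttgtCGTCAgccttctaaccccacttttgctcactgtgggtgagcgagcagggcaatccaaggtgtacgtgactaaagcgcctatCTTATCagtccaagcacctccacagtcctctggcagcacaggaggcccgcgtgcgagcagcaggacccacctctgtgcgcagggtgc
Urod: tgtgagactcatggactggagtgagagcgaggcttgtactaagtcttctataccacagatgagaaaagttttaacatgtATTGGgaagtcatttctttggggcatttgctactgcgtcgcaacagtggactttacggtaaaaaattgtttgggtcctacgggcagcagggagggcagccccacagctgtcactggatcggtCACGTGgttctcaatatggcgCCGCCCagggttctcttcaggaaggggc
The Alas1 stretch is chr9:106247908-106247934 (minus strand), the Alad stretch chr4:62519919-62520159 (minus strand), the Cpox stretch chr16:58669958-58670207 (plus strand) and the Urod stretch chr4:116994414-116994663 (minus strand). The Alas1 stretch lies before a listed start but inside the bounds that GENCODE gives the gene (106233455-106248654). The Alas1 windows lie in annotated exons, and only a stretch around an NRF1 core is printed. The capitals in Alas1 are an NRF1 core that matches on both strands, so that its 2 matches overlap. The 250 bases before this second listed Alas1 start held 3 NRF1 core matches, and the remaining match lies outside the printed stretch. Those before the other listed Alas1 start held 1 CRE core and 1 GC box, without an NRF1 core, and are not printed. The stretch was picked for its NRF1 core, so the share of promoter windows with that motif, given below, cannot be set against it. In the 250 bases before its second listed start, Alad held 6 GC box matches, some overlapping each other, with 1 CCAAT box and 1 E-box. Cpox held 1 CRE core and 1 GATA motif, and Urod 1 E-box, 1 CCAAT box and 1 GC box. The listed Cpox start lies before the start that GENCODE gives the gene. Bases after it were not found in an annotated transcript, while those after the Alas1, Alad and Urod starts were. Over 32851 promoter windows of the same 250 bases, 5.16% held the NRF1 core, 6.02% the E-box, 17.8% the CRE core, 33.8% the CCAAT box, 32.7% the GC box and 6.55% the GATA motif. Within these windows Alad, Cpox and Urod had no motif that all shared. A match is a description of letters and not a measured binding site.

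Library depth, read from the smallest steps of low FPKM values, ran from 90.0% to 111% of the mean. FPKM, fragments scaled per kilobase of gene and to the size of the library, corrects for both gene length and depth. Mitochondrially encoded genes made up 6.68% to 24.2% of a library's FPKM total, and the shares of pair-fed WT were high (15.2% to 24.2%), as were, under ethanol, those of Aldh2-/- 90 (18.2%) and WT 5 (13.6%). Aldh2 itself was at 6.57 to 11.5 FPKM in Aldh2-/- and 277 to 688 FPKM in WT libraries. The sum of 8 hepatocyte markers, albumin among them, was at least 56657 FPKM in every library. In whole liver, fewer cells of a type and less RNA per cell cannot be told apart.

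The first enzyme had the highest level in every group, in FPKM. Alas1 was at 206, 199, 268, 353 and 334 FPKM in ethanol-fed WT libraries 5, 6, 7, 11 and 12, and at 75.6, 126, 119 and 109 FPKM in ethanol-fed Aldh2-/- libraries 86, 89, 90 and 96. Pair-fed livers held 93.3, 88.3 and 71.7 FPKM in Aldh2-/- libraries 1, 2 and 9, and 99.97, 79.1 and 168 FPKM in WT libraries 18, 20 and 19. Every ethanol-fed WT library therefore stood above all 10 others, and the remaining groups overlapped. The order of the means was ethanol-fed WT (272 ± 71.3 FPKM, SD), pair-fed WT (116 ± 46.5), ethanol-fed Aldh2-/- (107 ± 22.2) and pair-fed Aldh2-/- (84.4 ± 11.3), and the lower 3 groups overlapped.

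Alad, the second enzyme, differed by genotype under ethanol and between the tables of the diets. Its levels were 10.5, 13.3, 11.6 and 9.63 FPKM in ethanol-fed Aldh2-/- livers (86, 89, 90, 96) and 29.1, 23.4, 24.6, 27.3 and 21.7 FPKM in ethanol-fed WT livers (5, 6, 7, 11, 12). Pair-fed Aldh2-/- livers (1, 2, 9) held 51.0, 55.2 and 47.8 FPKM and pair-fed WT livers (18, 20, 19) 39.8, 39.1 and 47.0 FPKM. The 4 groups did not overlap, with ethanol-fed Aldh2-/- lowest and pair-fed Aldh2-/- highest. The gap between the pair-fed genotypes was small, 47.0 against 47.8 FPKM at the nearest.

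**Figure D1:**
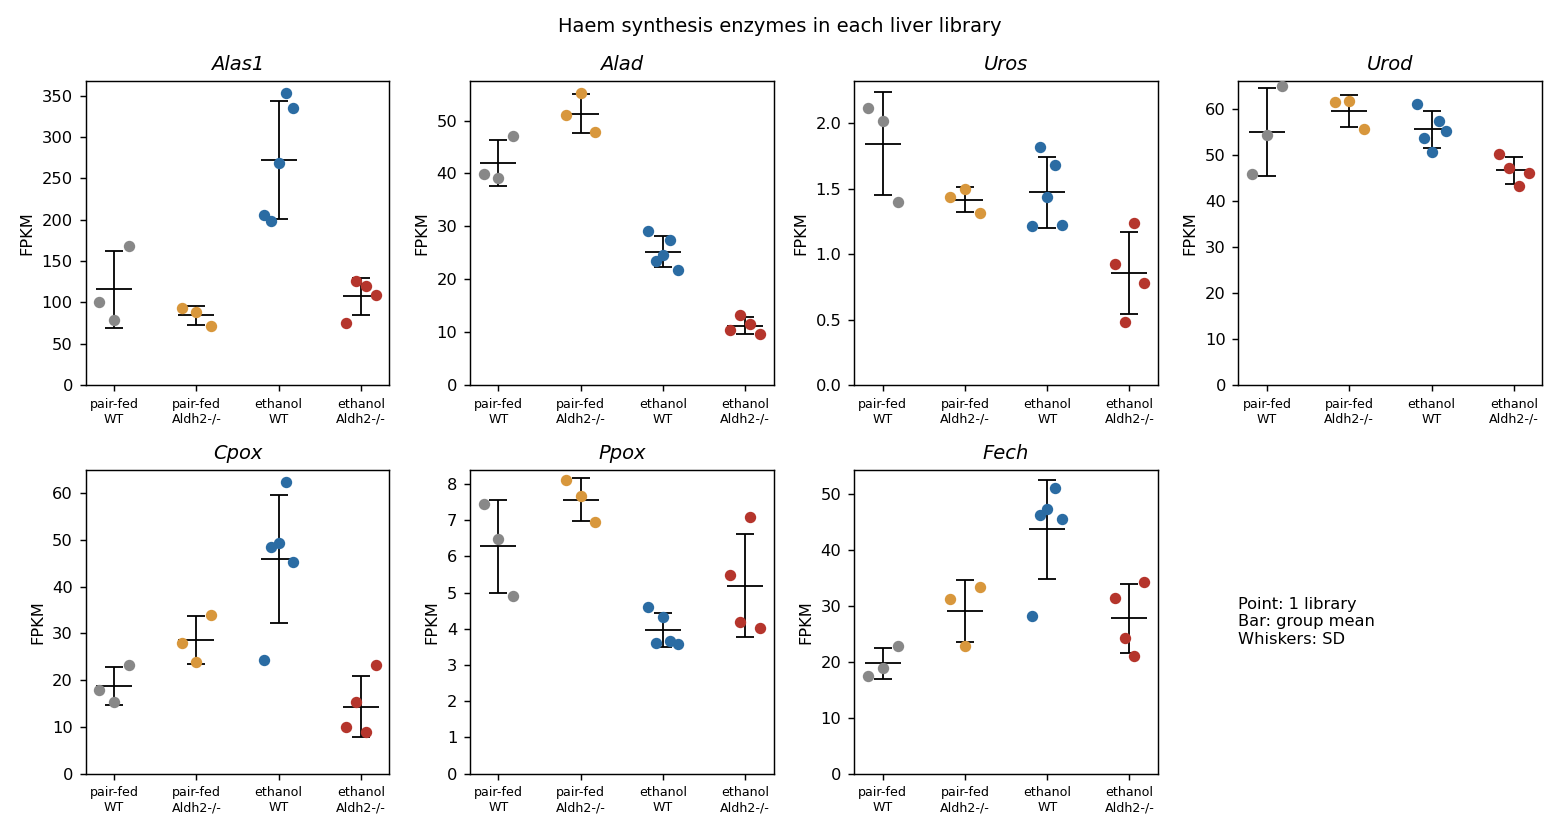
Level of each haem synthesis gene (y axis, FPKM) in the 4 groups; each point is 1 library, bars are means and whiskers SD. All 5 ethanol-fed WT points lie above the rest for Alas1, and ethanol-fed Aldh2-/- points are lowest for Alad.

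Uros, which closes the ring, was the lowest of the 7 in every group. It was at 0.924, 0.486, 1.24 and 0.780 FPKM in ethanol-fed Aldh2-/- livers and 1.21, 1.82, 1.44, 1.68 and 1.22 FPKM in ethanol-fed WT livers, in the same order of libraries. Pair-fed livers held 1.44, 1.499 and 1.31 FPKM (Aldh2-/-) and 2.12, 2.02 and 1.40 FPKM (WT). The ethanol groups overlapped through Aldh2-/- 90. Urod, the decarboxylase that follows, varied least: 50.3, 47.3, 43.2 and 46.1 FPKM in ethanol-fed Aldh2-/- livers, and 61.3, 53.7, 50.6, 57.5 and 55.2 FPKM in ethanol-fed WT livers, a gap between 50.3 and 50.6 FPKM. In pair-fed livers Urod was at 61.6, 61.9 and 55.7 FPKM (Aldh2-/-) and 45.9, 54.4 and 65.1 FPKM (WT), and the pair-fed groups overlapped.

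Cpox is the first of the oxidases. It was at 9.97, 15.3, 8.93 and 23.2 FPKM in ethanol-fed Aldh2-/- livers and 24.2, 48.5, 49.3, 62.2 and 45.3 FPKM in ethanol-fed WT livers. Aldh2-/- 96 (23.2) and WT 5 (24.2) nearly met, and the other 7 ethanol libraries were far apart. Pair-fed Aldh2-/- livers held 28.03, 23.8 and 33.9 FPKM and pair-fed WT livers 17.8, 15.3 and 23.3 FPKM, without overlap.

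Ppox, the next oxidase, lay between 3.58 and 8.11 FPKM in all 15 libraries. Ethanol-fed Aldh2-/- livers held 5.49, 4.19, 7.07 and 4.02 FPKM, and ethanol-fed WT livers 4.59, 3.62, 4.32, 3.66 and 3.58 FPKM. Pair-fed Aldh2-/- livers held 8.11, 7.65 and 6.94 FPKM and pair-fed WT livers 7.46, 6.48 and 4.91 FPKM, so that genotypes overlapped within each diet. Fech, which inserts the iron, was at 31.5, 24.3, 21.0 and 34.4 FPKM in ethanol-fed Aldh2-/- livers against 28.3, 46.4, 47.4, 51.1 and 45.7 FPKM in ethanol-fed WT livers. WT 5, at 28.3 FPKM, was the only ethanol-fed WT library within the Aldh2-/- range. Pair-fed livers held 31.2, 22.9 and 33.4 FPKM (Aldh2-/-) and 17.5, 19.0 and 22.9 FPKM (WT), where the lowest Aldh2-/- library (22.92) stood just above the highest WT library (22.88).

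By mean level the order of the genes below Alas1 changed with the group. Under ethanol, WT livers had Urod (55.7), Cpox (45.9), Fech (43.8) and Alad (25.2 FPKM), of which Urod, Cpox and Fech lay within their spread, whereas Aldh2-/- livers had Urod (46.7), Fech (27.8), Cpox (14.4) and Alad (11.2 FPKM), with Cpox and Alad within their spread. In both pair-fed groups Alad took the place after Urod, at 51.3 ± 3.72 FPKM (Aldh2-/-) and 42.0 ± 4.39 FPKM (WT), ahead of Fech and Cpox, which lay within their spread. Ppox and Uros were the last 2 in all 4 groups. The ranking rests on the gene lengths that the authors used, which are not given in the sources used here.

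Loss of Aldh2 under ethanol was tested on log2(FPKM + 1), so that folds of low genes are understated. Of the 7 enzymes, 5 fell and none rose (limma, Benjamini-Hochberg adjusted p under 0.05 over 11013 genes). Over all genes tested, 15.7% fell and 21.5% rose, a split that turned to more falls than rises (2447 against 1942) after median-ratio rescaling, and the median log2 difference was -0.63 over the 7 and 0.04 over all genes tested. Cpox fell by 1.64 ± 0.30 on the log2 scale (SE, adjusted p = 0.00219), from 45.9 ± 13.7 to 14.4 ± 6.52 FPKM. Alas1 was 2.53-fold lower (log2 difference -1.32 ± 0.21, adjusted p = 0.00118), and the exact two-sided permutation test over the 9 libraries gave p = 0.00794, the smallest that 126 splits allow. Alad was 2.25-fold lower (log2 difference -1.10 ± 0.12, adjusted p = 0.000214). Every Aldh2-/- library was lower than every WT library for Cpox, Alas1 and Alad, and these calls held without any 1 of the 9 libraries and after each rescaling tried.

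Calls for the other steps under ethanol were less firm. Fech was 1.57-fold lower (adjusted p = 0.0242) and Uros 1.72-fold lower (adjusted p = 0.0233). The Fech call was lost without Aldh2-/- 89 or 90 or WT 6, 7, 11 or 12 (adjusted p from 0.0529 to 0.0699), while without WT 5 the log2 difference was larger, -0.78 (adjusted p = 0.00263). For Uros it was lost without Aldh2-/- 89 or WT 6 or 11 (adjusted p from 0.0547 to 0.0615). Urod had a log2 difference of -0.25 (95% interval -0.45 to -0.04, adjusted p = 0.0595) and was called lower after median-ratio rescaling (adjusted p = 0.0113), with a common sum (0.0347), without mitochondrially encoded genes (0.0388) and with no filter (0.0396). Ppox had a log2 difference of 0.30 (95% interval -0.02 to 0.62, adjusted p = 0.123; 0.0251 with library weights). Leaving out WT 5 and Aldh2-/- 90 together, the ethanol libraries with high mitochondrial shares, again gave 5 enzymes lower, a choice made after seeing the data.

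Markers of other liver cells moved in the same comparison, in which 21.5% of all genes tested rose and 15.7% fell. Macrophage markers rose in 8 of 8 (summed level 489 to 1040 FPKM in Aldh2-/- against 210 to 257 FPKM in WT libraries), endothelial markers in 6 of 6 (75.2 to 113 against 32.2 to 70.1 FPKM) and stellate cell markers in 5 of 5 (162 to 293 against 83.3 to 180 FPKM). Neutrophil markers rose in both of 2 tested (28.1 to 86.9 against 5.28 to 27.4 FPKM) and cholangiocyte markers in 2 of 4 (20.9 to 23.9 against 7.35 to 23.4 FPKM). Hepatocyte markers rose in 1 and fell in 1 of 8, and their summed level was 56657 to 70535 FPKM against 68418 to 86968 FPKM. The part of these cells in the fall of the haem enzymes was not tested. A ratio of 2 genes within a library does not depend on how that library was scaled: Alas1 over Urod was 1.502 to 2.76 in ethanol-fed Aldh2-/- and 3.36 to 6.14 in ethanol-fed WT livers, and Alad over Urod 0.208 to 0.280 against 0.394 to 0.487. Cpox over Urod overlapped between the genotypes (0.198 to 0.503 against 0.395 to 1.08), through Aldh2-/- 96 and WT 5. Fech over Urod overlapped as well (0.487 to 0.746 against 0.462 to 0.936).

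**Figure D2:**
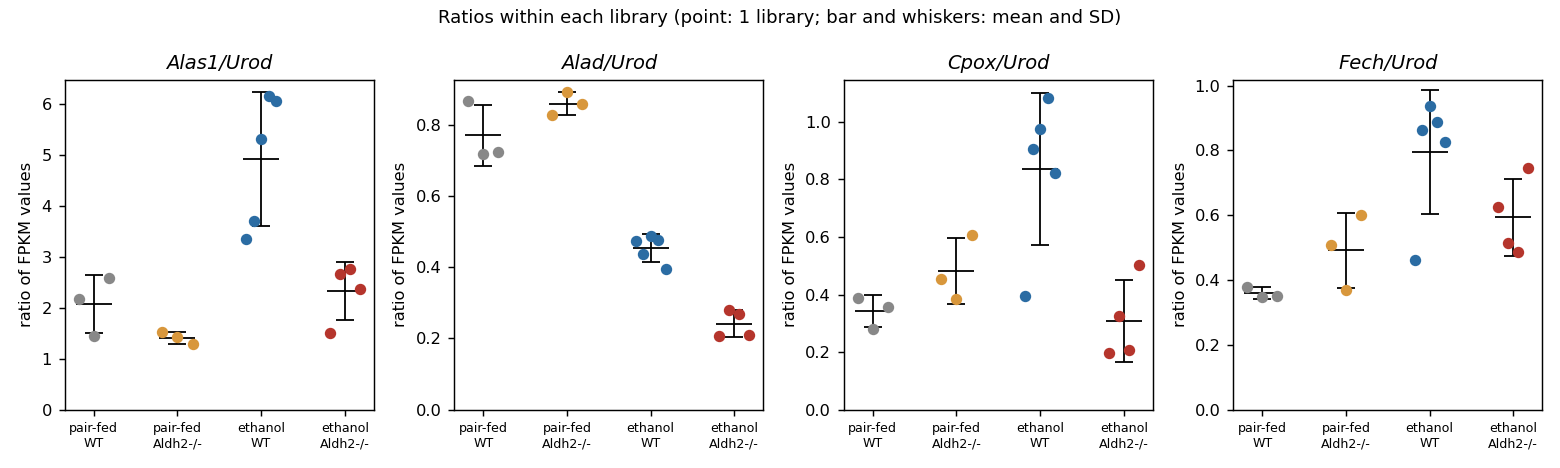
Level of 4 haem synthesis genes divided by that of Urod in the same library (y axis, ratio of FPKM values); points are libraries, bars means and whiskers SD. Alas1 over Urod is highest in ethanol-fed WT livers (3.36 to 6.14), and Alad over Urod is lowest in ethanol-fed Aldh2-/- livers (0.208 to 0.280).

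Between the pair-fed genotypes, 2 enzymes were called. Cpox rose 1.52-fold (log2 difference 0.59 ± 0.19, SE, adjusted p = 0.0469 by limma) and Fech 1.48-fold (log2 difference 0.53 ± 0.17, adjusted p = 0.0494) in Aldh2-/- livers, and none of the 7 fell. Among all 11138 genes tested, 26.0% rose and 2.41% fell (258 rose and 379 fell after median-ratio rescaling), and their median log2 difference was 0.26, against 0.25 over the 7 enzymes. Relative to that median of 0.26 the difference was 0.33 for Cpox, 0.27 for Fech, 0.03 for Alad and -0.64 for Alas1. Both calls were lost after median-ratio rescaling (adjusted p = 0.426 and 0.513), after quantile normalization, with no filter, in the joint fit, and on leaving out any of 4 libraries (Aldh2-/- 1, Aldh2-/- 9, WT 18, WT 20). The mitochondrial share was 6.90% to 10.8% in pair-fed Aldh2-/- libraries, below all 3 pair-fed WT libraries. With those genes removed and the rest rescaled, the adjusted p was 0.0805 for Cpox and 0.104 for Fech.

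Alas1 was at 84.4 ± 11.3 against 116 ± 46.5 FPKM in pair-fed Aldh2-/- and WT livers (log2 difference -0.39, 95% interval -0.97 to 0.20, adjusted p = 0.268). The exact two-sided permutation p was 0.4, where 3 against 3 cannot go below 0.1. WT 19 held 168 FPKM of Alas1, and without it the log2 difference was -0.08. Alad (log2 difference 0.29, 95% interval -0.003 to 0.57), Urod (0.13, -0.21 to 0.46), Ppox (0.25, -0.11 to 0.60) and Uros (-0.23, -0.53 to 0.08) were not called, with adjusted p from 0.115 to 0.526. For Alad, Urod and Ppox the sign turned after median-ratio rescaling and after quantile normalization. Macrophage markers rose in 4 of 8 in the same comparison (summed level 285 to 430 FPKM in Aldh2-/- against 153 to 239 FPKM in WT libraries), and hepatocyte markers rose in 2 and fell in 1 of 8 (82132 to 91061 against 73101 to 84951 FPKM). Over all genes tested 26.0% rose and 2.41% fell, so the hepatocyte rises were near the share of all genes. The part of these cells in the enzyme values was not tested.

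**Figure D3:**
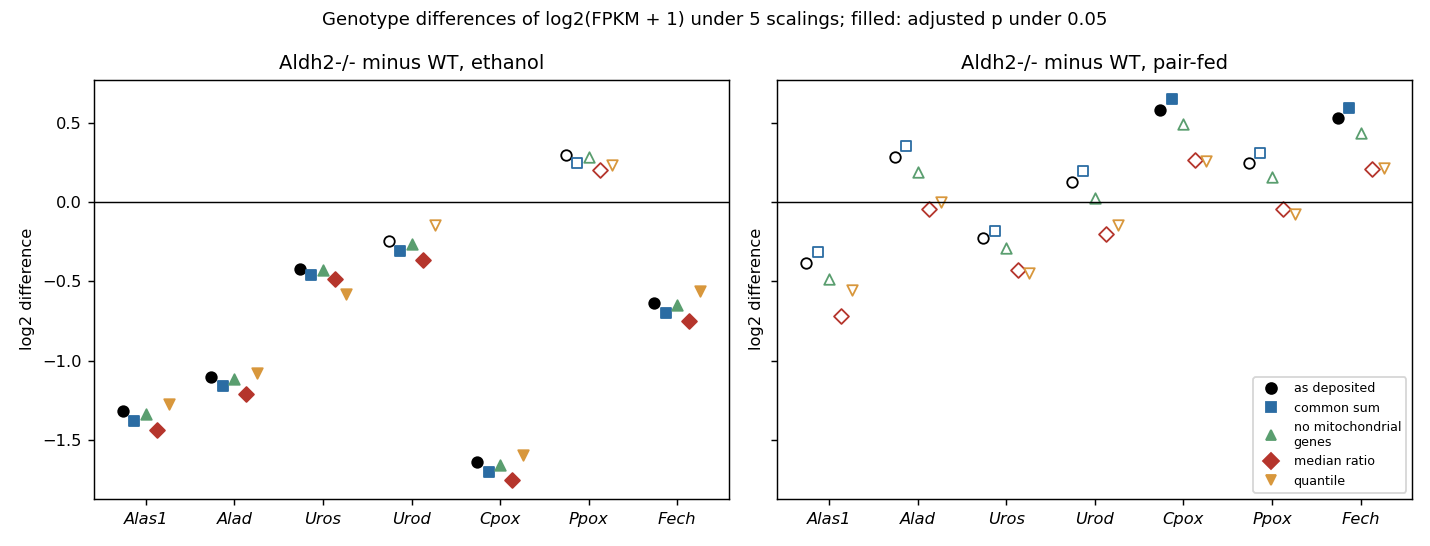
Genotype difference (y axis, Aldh2-/- minus WT, log2(FPKM + 1)) of each enzyme under 5 scalings of the libraries, left for ethanol and right for pair-feeding; filled symbols have an adjusted p under 0.05. Under ethanol Alas1, Alad and Cpox stay below -1 in all 5, and in pair-fed livers Alad, Urod and Ppox cross 0.

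Whether the genotype difference itself changed with the diet was tested in a joint fit of all 15 libraries, in which an offset shared by a table cancels. For 3 of the 7 enzymes the difference was lower under ethanol than under pair-feeding, and for none was it higher; over all 11157 genes tested, 29.0% were called lower and 8.06% higher, with a median of -0.22. The interaction was -2.23 ± 0.43 for Cpox (log2, SE, adjusted p = 0.00156 by limma), -1.39 ± 0.17 for Alad (adjusted p = 0.000108) and -1.16 ± 0.29 for Fech (adjusted p = 0.0065). Relative to the median of all genes it was -2.01 for Cpox, -1.17 for Alad and -0.95 for Fech. These 3 calls held without any 1 library. For Alas1 the interaction was -0.93 ± 0.36 (95% interval -1.70 to -0.16, adjusted p = 0.0547), just short of the threshold. It passed without ethanol-fed WT 5 or 6 or pair-fed WT 19 (adjusted p = 0.0356, 0.0409 and 0.0118) and, among the rescalings, with a common sum (adjusted p = 0.0296). The Alas1 interaction also passed with library weights (adjusted p = 0.00528) and with a filter at a mean of 2 FPKM (0.0489). Without ethanol-fed WT 5 and Aldh2-/- 90 together it passed too (0.0384). In 12 of 15 fits leaving out 1 library, and under the other alternatives, it stayed uncalled. Urod had an interaction of -0.37 (adjusted p = 0.0806), and passed without pair-fed WT 19 (adjusted p = 0.0214). It also passed with a common sum (adjusted p = 0.0230) and with library weights (adjusted p = 0.0426). Uros (-0.20) and Ppox (0.05) were not called.

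The diet comparisons set one deposited table against the other, so ethanol and table cannot be told apart in them. In WT livers, 3 enzymes were higher under ethanol: Alas1 (2.35-fold, adjusted p = 0.00138 by limma), Cpox (2.44-fold, adjusted p = 0.00499) and Fech (2.21-fold, adjusted p = 0.00082). Alad (1.66-fold, adjusted p = 0.000518) and Ppox (1.59-fold, adjusted p = 0.0111) were lower. Of 11157 genes tested, 29.2% were higher and 11.9% lower. Urod had a log2 difference of 0.02 (95% interval -0.21 to 0.26). The Ppox call was lost without pair-fed WT 18 (adjusted p = 0.066), and the other 4 held without any 1 library. Between these groups macrophage markers were higher in 2 and lower in 1 of 8, hepatocyte markers higher in 3 and lower in 2 of 8, and erythroid markers summed to 198 to 625 FPKM under ethanol and 633 to 888 FPKM in pair-fed livers. Their part was not tested.

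In Aldh2-/- livers the same comparison was made. None of the 7 enzymes was higher under ethanol and 5 were lower, beside 17.6% and 29.3% of all genes. In the directions with no call, also in the other comparisons, no enzyme passed at an unadjusted p of 0.05. Alad was 4.57-fold lower (log2 difference -2.10 ± 0.13, SE, adjusted p = 4.39e-08 by limma), from 51.3 ± 3.72 to 11.2 ± 1.57 FPKM. Cpox was 1.99-fold lower (adjusted p = 0.0131; 0.0533 without pair-fed Aldh2-/- 9). Uros, Urod and Ppox were 1.65-fold, 1.28-fold and 1.46-fold lower (adjusted p from 0.0202 to 0.0281). Uros and Ppox lost the call without ethanol-fed Aldh2-/- 89 or 96 or pair-fed Aldh2-/- 1 or 2, and Urod without ethanol-fed 90 or pair-fed 1 or 2. After median-ratio rescaling Alad, Cpox and Ppox were still called. Alas1 had a log2 difference of 0.33 (95% interval -0.23 to 0.88, adjusted p = 0.322) and Fech of -0.08 (-0.52 to 0.37). In that comparison macrophage markers were higher under ethanol in 5 of 8 (489 to 1040 against 285 to 430 FPKM), endothelial markers in 6 of 6 (75.2 to 113 against 40.4 to 59.9 FPKM) and stellate cell markers in 4 of 5, with 1 lower (162 to 293 against 86.5 to 116 FPKM). Erythroid markers summed to 781 to 2401 against 315 to 767 FPKM, and hepatocyte markers were higher in 1 and lower in 2 of 8 (56657 to 70535 against 82132 to 91061 FPKM). The part of these cells in the lower enzyme levels was not tested. The genotype and diet comparisons share libraries and are not independent of each other.

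**Figure D4:**
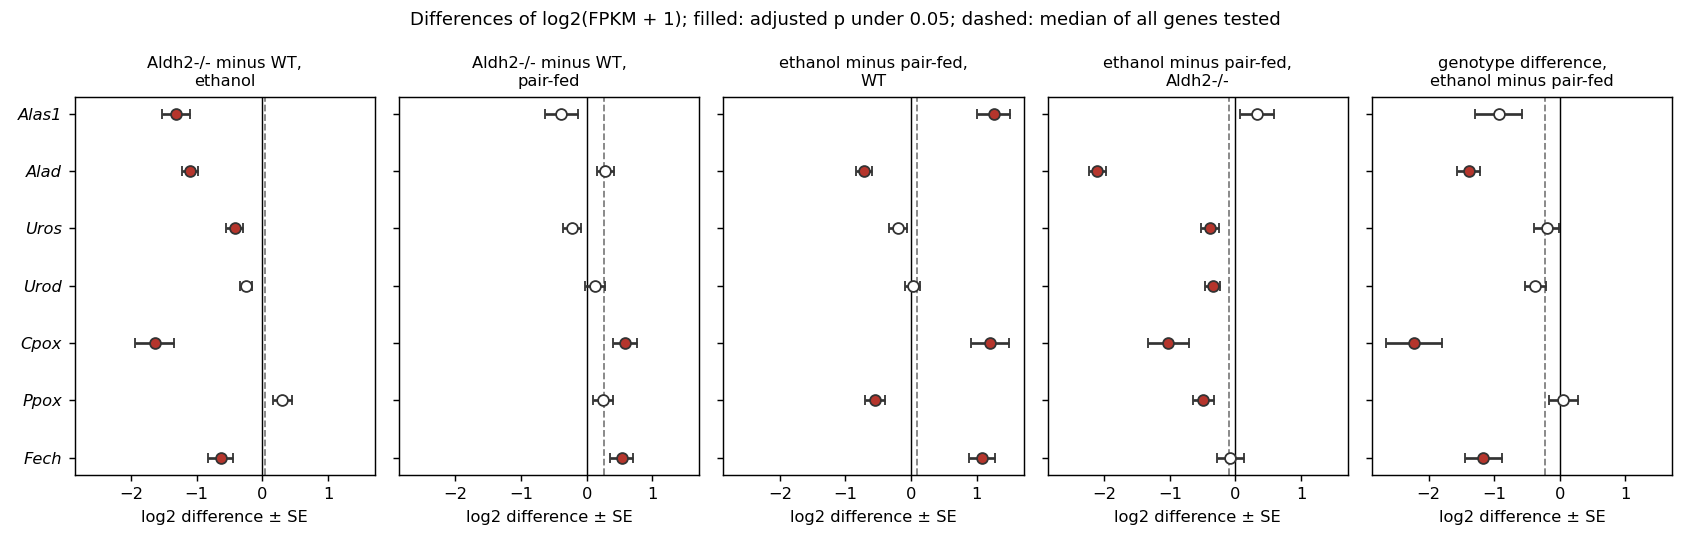
Difference in log2(FPKM + 1) with its SE (x axis) of each enzyme in the 5 comparisons; filled points have an adjusted p under 0.05 and the dashed line is the median of all genes tested. Cpox, Alad and Fech carry called interactions (-2.23, -1.39 and -1.16).

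Alas2, the erythroid form of the first enzyme, was set beside Alas1. Alas2 was at 22.6 ± 7.53 against 14.5 ± 2.73 FPKM under ethanol (0.57, adjusted p = 0.0495), with overlap of the groups. Exons of Alas2 share 15.5% of their bases with Apex2 and Mir3620 on the opposite strand. Erythroid markers, the globin genes and Alas2 among them, summed to 781 to 2401 FPKM in ethanol-fed Aldh2-/- and 198 to 625 FPKM in ethanol-fed WT libraries, without overlap. Klf1 of that list went the other way by its means, at 1.54 against 1.96 FPKM. Of 13 listed, 8 passed the filter, some only through the libraries where they were high, so no count of calls is read from them. In ethanol-fed WT libraries 3 of the 13 were listed at 0 throughout. Near-identical globin copies share reads. The part of red cell RNA in the values of the shared enzymes was not tested.

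Genes around the pathway were read from lists. Of 13 genes of mitochondrial haem and iron supply, 7 fell and 1 rose in ethanol-fed Aldh2-/- livers against ethanol-fed WT livers, where 15.7% of all genes fell and 21.5% rose. Their median log2 difference was -0.34, beside 0.04 over all genes tested. Fam210b, a mitochondrial protein linked to iron delivery in erythroid cells, fell from 32.3 ± 8.36 to 15.2 ± 4.56 FPKM (log2 difference -1.04, adjusted p = 0.00621 by limma), and the transporter Abcb10 by 0.62 on the log2 scale. Slc25a28, the iron importer mitoferrin 2, rose from 10.6 ± 2.28 to 20.4 ± 2.69 FPKM (0.90, adjusted p = 0.00134). In pair-fed livers 3 of the 13 rose and none fell, a share near the 26.0% of all genes that rose. The interaction was called lower for 8 of 13 and higher for 1, where 29.0% and 8.06% of all genes were called.

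Haem breakdown and transport were read next. Over all genes tested, 21.5% rose and 15.7% fell in ethanol-fed Aldh2-/- livers. Between the pair-fed genotypes 26.0% rose and 2.41% fell, but after median-ratio rescaling 258 genes rose and 379 fell. Hmox1, the inducible haem oxygenase that opens the ring, was at 95.4, 149, 40.4 and 52.4 FPKM in ethanol-fed Aldh2-/- libraries 86, 89, 90 and 96, against 22.2, 16.1, 13.9, 12.3 and 16.4 FPKM in ethanol-fed WT libraries 5, 6, 7, 11 and 12. The lowest Aldh2-/- library thus exceeded the highest WT library, with a log2 difference of 2.15 (adjusted p = 0.000929 by limma). Pair-fed livers held 18.3 ± 2.40 against 14.8 ± 3.49 FPKM (adjusted p = 0.218), and the interaction was called (1.86, adjusted p = 0.00662). Hmox1 is also expressed in macrophages, whose markers rose in the same libraries; their part was not tested. Of the other 3 breakdown genes (Hmox2, Blvra, Blvrb) none was called under ethanol, and Hmox2 (0.58, adjusted p = 0.0232) and Blvra (0.56, adjusted p = 0.0339) rose between the pair-fed genotypes. Slc46a1, a folate and haem carrier, fell by 0.90 on the log2 scale in ethanol-fed Aldh2-/- livers (adjusted p = 0.00305) and rose by 0.58 in pair-fed Aldh2-/- livers (adjusted p = 0.0147), in both the only call among 5 genes of haem export and import. Cox15, which makes haem a for cytochrome oxidase, fell from 6.16 ± 1.38 to 2.68 ± 0.826 FPKM under ethanol (adjusted p = 0.00203), the only call there among 3 makers of haem a and c. None of the 4 plasma haem and haemoglobin binding genes was called under ethanol by limma (Hpx had an unadjusted p of 0.0397), while Hpx, the haem-binding plasma protein haemopexin, rose in pair-fed Aldh2-/- livers (9962 against 4907 FPKM, adjusted p = 0.0304).

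**Figure D5:**
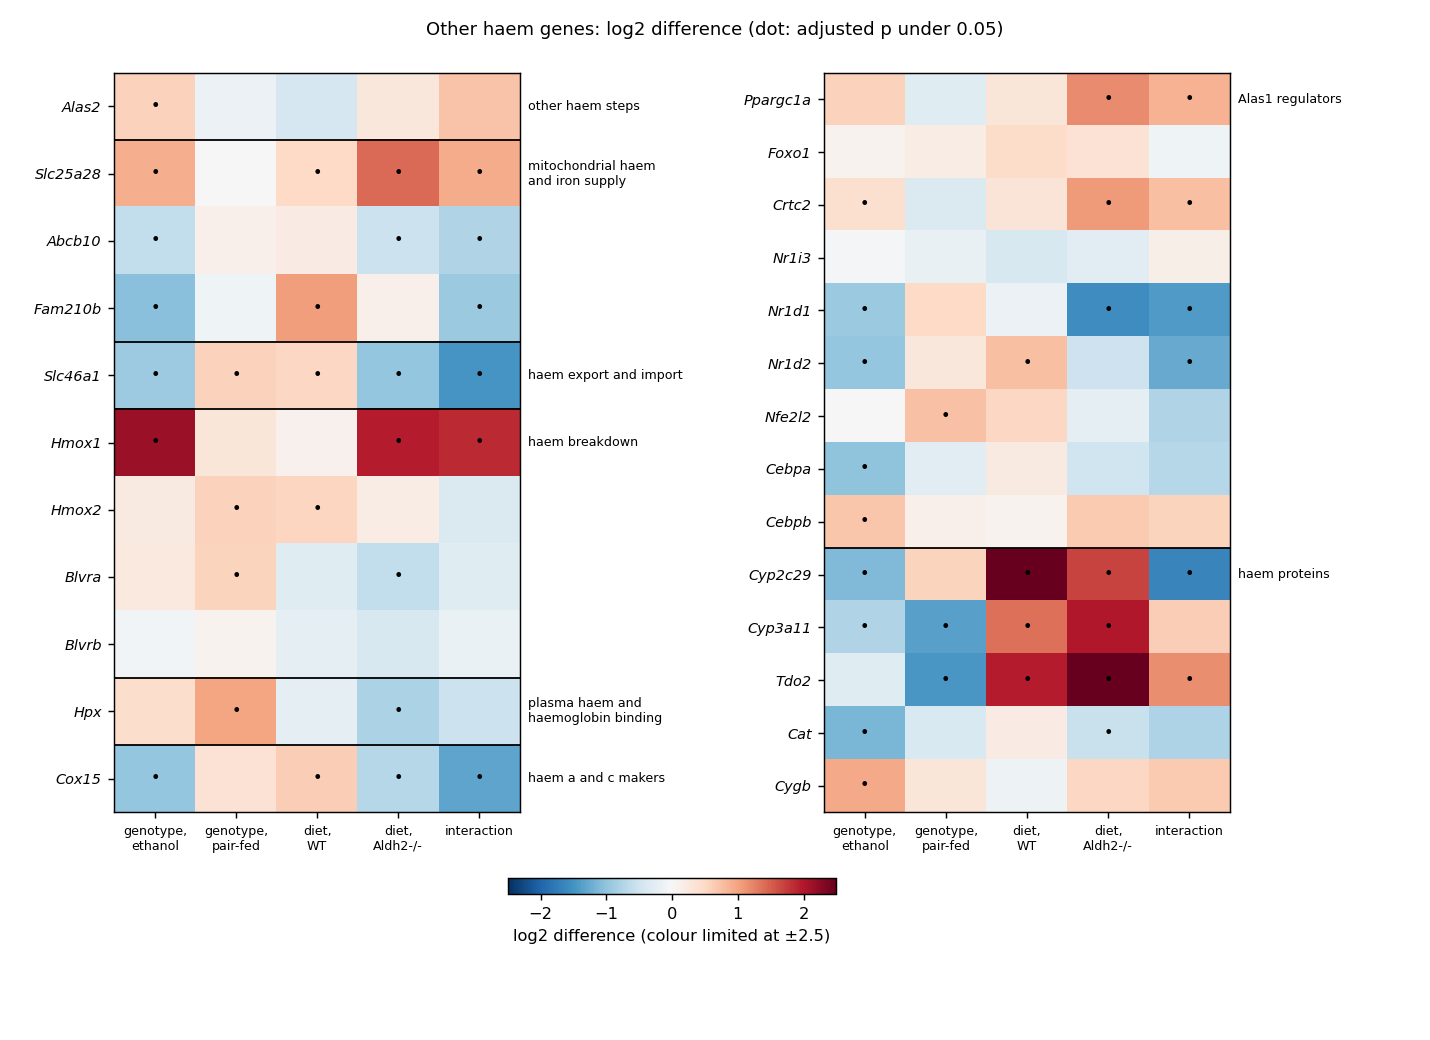
Log2 difference (colour, limited at ±2.5) of the other haem genes named in the text, ordered by list, across the 5 comparisons in columns; dots mark an adjusted p under 0.05. Hmox1 is the strongest rise of the breakdown genes under ethanol (2.15), and its interaction is 1.86.

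Of 12 listed regulators of Alas1, 2 rose and 3 fell in ethanol-fed Aldh2-/- livers, counts near the 21.5% of all genes that rose and not far above the 15.7% that fell. Nr1d1, the haem-binding clock repressor REV-ERB alpha, which lowers Alas1, fell from 20.5 ± 7.84 to 9.94 ± 2.11 FPKM (log2 difference -0.92, adjusted p = 0.016 by limma), with Nr1d2 at -0.97 (adjusted p = 0.000818). Cebpa, a hepatocyte transcription factor, fell by 1.01 (adjusted p = 0.00621). Crtc2, a coactivator of the fasting response, rose by 0.39 (adjusted p = 0.0137) and Cebpb by 0.69 (adjusted p = 0.0337). Ppargc1a, the coactivator PGC-1 alpha that induces Alas1 in fasting, was at 2.41 ± 1.18 against 1.23 ± 0.473 FPKM (adjusted p = 0.0792), while Foxo1 (adjusted p = 0.666) and the xenobiotic receptor gene Nr1i3 (adjusted p = 0.918) were at 6.34 against 5.88 and 28.9 against 28.5 FPKM. Only Nfe2l2 of the 12 was called between pair-fed genotypes (0.74, adjusted p = 0.0491), where 26.0% of all genes rose. That call was not repeated under another scaling.

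Haem proteins are the users of the product. Of 16 listed, 5 fell and 2 rose in ethanol-fed Aldh2-/- livers, beside 15.7% and 21.5% of all genes. Catalase (Cat) fell from 928 ± 163 to 426 ± 121 FPKM (log2 difference -1.15, adjusted p = 0.00191 by limma) and the P450 gene Cyp2c29 by 1.10 (adjusted p = 0.00856), while Cygb, a globin of stellate cells, rose by 0.94 (adjusted p = 0.00853). In pair-fed livers 5 of 15 tested fell and none rose, beside 2.41% and 26.0% of all genes. Those that fell included Tdo2, the haem enzyme of tryptophan breakdown (132 ± 58.7 against 340.2 ± 34.7 FPKM, adjusted p = 0.0138), and Cyp3a11 (526 ± 302 against 1234 ± 163 FPKM, adjusted p = 0.0231). Between diets in WT livers 8 of 16 were higher under ethanol and 1 lower, beside 29.2% and 11.9% of all genes. Their median log2 difference was 1.03 beside 0.10 over all genes tested. In Aldh2-/- livers 10 of 16 were higher under ethanol and 3 lower, beside 17.6% and 29.3% of all genes. There the median was 1.45 beside -0.09 over all genes tested. The interaction was called higher for 4 of 16 and lower for 1, beside 8.06% and 29.0% of all genes.

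The 5 genes most like Alas1 across the 15 libraries, among 7794 with a mean of at least 2 FPKM, were Aldh1a1, Chst13, Gldc, Aspa and Sugct. Pearson r of log2(FPKM + 1) with Alas1 was 0.86, 0.85, 0.85, 0.85 and 0.85 in that order, a description over libraries that share groups, tables and scaling. Each had its highest mean in ethanol-fed WT livers, for example Aldh1a1, a cytosolic retinal dehydrogenase, at 330 ± 73.9 FPKM against 168 to 179 FPKM in the means of the other 3 groups. Among the other enzymes described, r with Alas1 was 0.69 for Cpox, 0.66 for Fech, 0.17 for Urod, -0.10 for Alad and -0.77 for Ppox.

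On GRCm38, GENCODE places Alas1 on chromosome 9 (106233455-106248654), Alad on 4 (62509169-62519918), Uros on 7 (133686243-133710072), Urod on 4 (116989965-116994413), Cpox on 16 (58670292-58717636), Ppox on 1 (171275990-171281186) and Fech on 18 (64452914-64490251). All 7 are protein-coding, and all are on the minus strand except Cpox. Exons of Ppox share 17.5% of their bases with B4galt3 on the opposite strand, those of Alas1 7.53% with an antisense gene and those of Cpox 3.06% with Gpr15. Whether the authors' counting used strand is not given in the sources used here, so reads of such overlaps may be split, lost or mixed. Alad, Uros, Urod and Fech share no exonic base with another gene.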

How the data were processed

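Total RNA of 15 liver samples was sequenced as paired reads of 150 bp, per the labels' protocols. HISAT2, HTSeq, fastp and mm10 are named, without versions, per the submitters' processing notes. The authors deposited FPKM values in 2 tables, 1 per diet, and further scaling is not given in the sources used here. No column of either table was left unused. Relative depth came from the commonest ratio of low values between libraries, and absolute depth is unknown, so no counting interval is given.

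Groups and library numbers followed the sample titles. limma 3.58.1 (R 4.3.3; lmFit, eBayes with a variance trend) was fitted across all genes on log2(FPKM + 1), keeping genes whose fitted libraries averaged 0.5 FPKM or more. Benjamini-Hochberg adjusted p-values under 0.05, two-sided, were called. Genotype comparisons used 1 table, and diet comparisons and the interaction a joint fit. The procedure was tested on simulated data with independent genes and no shift between libraries, which cannot show how scaling affects the calls. The labels number the samples without saying that each is a separate mouse. The p-values therefore weigh group differences against the spread between these samples, which may be technical.

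The members and lists were chosen with earlier results of these data known. Named were all 7 enzymes, a panel (among them Alas2, Hmox1, Ppargc1a, Nr1d1, Nr1i3, Foxo1), the 5 genes most correlated with Alas1, and listed genes called with a log2 difference of at least 0.5, of which the text prints examples; some items are not reported here. For 1 listed marker (transferrin) the tables' symbol Trf was used. Alternatives were another pseudocount, filters, 4 rescalings (1 without the 13 mitochondrially encoded genes), robust variances, library weights, fitting with more or fewer groups, blocking on sample number and leaving out each library. These alternatives were read for the 7 enzymes and for counts of all genes tested, and not for other genes named. Promoters came from RefSeq on GRCm38.p6. Figures used matplotlib 3.10.9 in Python 3.11.15.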

Additional observations from a re-analysis of the deposited data

Results flagged for a closer look

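Of 14 gene and group combinations with 4 or 5 libraries, 1 held a library that stood apart from the rest of its group. Chance alone gives about 1 in 20 such groups. Fech was at 28.3 FPKM in ethanol-fed WT 5, where the other 4 ethanol-fed WT libraries held 45.7 to 51.1 FPKM. That library also had the lowest Cpox of its group and the highest mitochondrial share (13.6%), whose part in the value was not tested.

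The genotype difference of 3 enzymes changed with the diet in a test of the interaction by limma. Its size was -1.39 for Alad, -2.23 for Cpox and -1.16 for Fech on the log2 scale. In each the Aldh2-/- livers were lower than WT under ethanol and higher under pair-feeding by their means. However, the pair-fed difference of Alad was not called and changed sign after median-ratio rescaling. The pair-fed calls of Cpox and Fech (adjusted p = 0.0469 and 0.0494) were lost after that rescaling (0.426 and 0.513).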

How the results depend on the processing

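Lower Alas1, Alad and Cpox in ethanol-fed Aldh2-/- livers, and the interactions of Alad, Cpox and Fech, kept their direction and their call under every alternative that gave a value. Leaving out 1 library in turn gave 3 to 5 enzymes called and 3175 to 4736 genes of all under ethanol, 0 to 2 and 294 to 2870 under pair-feeding, 4 to 5 for diet in WT, 2 to 5 for diet in Aldh2-/- and 3 to 5 for the interaction. The pair-fed gene count was 294 without Aldh2-/- 1, 474 without WT 20 and 1925 without Aldh2-/- 2, against 3162. In the pair-fed comparison 0 enzymes were called, and 1103 genes of all with no filter, 637 after median-ratio rescaling, 648 after quantile normalization and 1861 without mitochondrially encoded genes. A joint fit also gave 0 enzymes, and library weights gave 4826 genes. The joint fit and the unfiltered fit differ in the genes or libraries tested, and otherwise the cause was not tested.

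For diet in Aldh2-/- livers, 3 enzymes were called with a common sum or median-ratio rescaling and 2 without mitochondrially encoded genes. For the interaction, 5 were called with a common sum or library weights. Signs turned for uncalled values only. They were -0.0401, -0.20 and -0.0408 for pair-fed Alad, Urod and Ppox after median-ratio rescaling and -0.000384, -0.14 and -0.0752 after quantile normalization. For Urod between diets in WT they were -0.0806, -0.14 and, without WT 5 and Aldh2-/- 90, -0.0105 (from -0.10 to 0.15 leaving out 1 library). For Fech between diets in Aldh2-/- they were 0.0172 (common sum), 0.0222 (median ratio), 0.12 (quantile), 0.0542 (no mitochondrial genes) and 0.0440 (without those 2 libraries), from -0.24 to 0.0440 leaving out 1. The Ppox interaction was -0.0577 (common sum) and -0.0399 (without those 2), from -0.0844 to 0.20 leaving out 1.

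Of the called genes, 57.7% were higher in Aldh2-/- under ethanol as deposited, 44.2% after median-ratio rescaling and 44.9% after quantile normalization, and 91.5%, 40.5% and 46.3% under pair-feeding. For diet the share went from 71.1% to 55.8% in WT and from 37.6% to 47.1% in Aldh2-/- livers, and for the interaction from 21.7% to 43.6%, after median-ratio rescaling. A replicate block by the numbers in the sample descriptions left 3 enzymes called under ethanol and 2 for diet in Aldh2-/-. Of 7 same-numbered pairs, 2 had a correlation of deviations over 0.1, and 1 Aldh2-/- library correlated best with its own number, so the numbers were not taken as pairs. The other set of groups was not run for the interaction.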
